A study of Mus musculus with 8 samples.

Results

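Open chromatin of proNeu2 cells was compared with that of proNeu1 cells in mouse bone marrow, using the 2 proNeu2 and the 2 proNeu1 libraries, which are 4 of the 8 ATAC-seq samples of the study. The members were chosen by their labels alone, and all 61196 regions counted in each library were described. In ATAC-seq the transposase Tn5 cuts and tags DNA that is not packed away, and each count is 1 deposited read in a region. The other groups, cMoP and GMP-MoP with 2 libraries each, entered the model that estimates the spread and are shown as reference levels. The labels give bone marrow progenitor cells for every group, with 5000 sorted cells per tube, and state no treatment, genotype or age. The labels call the 2 libraries of each group biological replicates. No source used here gives the strain, the sort gates or whether replicates came from separate animals. The spread behind each p-value is thus that of these samples only and may be technical.

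Neutrophils arise in the marrow from granulocyte-monocyte progenitors. The names proNeu1 and proNeu2 are used for successive early neutrophil progenitors, which come before the dividing preNeu stage, while cMoP is the common monocyte progenitor. Along this path cells load primary granules with myeloperoxidase and elastase, then, under the transcription factor C/EBPε, secondary and tertiary granules with proteins such as lactoferrin and lipocalin 2. Accessible promoters and enhancers of lineage genes generally open before or with their transcription, and regulatory regions of stem cell and other lineage genes close.

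The proNeu libraries held 1515953 and 1572001 counts in proNeu1 and 1785907 and 1631168 in proNeu2, within the range of 1388525 to 1907810 of the other groups, and the median region had 11 or 12 counts. Levels are given as CPM after TMM normalization, where 1 count is worth 0.608 to 0.708 CPM in these 4 libraries. Counts of the 2 proNeu2 libraries were closer to each other than those of any other group. Their chi-square divided by its degrees of freedom was 1.04 where the sum was 10 or more (other groups 1.18 to 1.23) and 1.01 where it was 80 or more (other groups 1.30 to 1.38). The chi-square p was 1.32e-08 and 0.182 at these minimums. These values do not show whether the libraries are separate biological samples. They were counted as 2, since the labels number them as biological replicates. Counts of calls with their sum as 1 sample are given beside the main ones. The region at the start of Ngp, a neutrophil granule gene, had 34.6 to 41.8 CPM in the 4 proNeu libraries and 0.528 to 3.23 CPM in the cMoP and GMP-MoP libraries. The main region of Irf8, a monocyte factor, had 17.3 to 21.7 CPM in the proNeu libraries and 40.7 to 53.8 CPM in the others. Regions linked to markers of B cells took 0.0154 to 0.0165% of counts in proNeu1 and 0.0155 to 0.0170% in proNeu2, and those of T and NK cells 0.0424 to 0.0433% and 0.0428 to 0.0440%. Erythroid and megakaryocyte marker regions took 0.0457 to 0.0458% and 0.0470 to 0.0488%, and mast cell, basophil and eosinophil marker regions 0.0602 to 0.0608% and 0.0571 to 0.0585%.

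Few single regions separated proNeu2 from proNeu1, and most of those that did were less accessible in proNeu2. Of 47506 regions tested, 36 (0.0758%) passed an adjusted p under 0.05 by edgeR (quasi-likelihood F test, p-values adjusted after Benjamini and Hochberg). The 32 lower regions (0.0674% of those tested) fell by at least 1.75-fold, and 29 of them at least 2-fold, with a median log2 change of -1.79. The 4 higher regions (0.00842%) rose by at least 1.74-fold. The proNeu1 and proNeu2 libraries did not overlap at any of the 36, a separation seen upwards at 19.2% and downwards at 21.0% of all tested regions. In these pools of cells, fewer cells with an open region and less opening per cell cannot be told apart.

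The number of calls moved with the tool and with single libraries. DESeq2 called 1 region, summing the proNeu2 libraries left 16, and leaving out proNeu1 replicate 1, proNeu2 replicate 1 or proNeu2 replicate 2 left 8, 3 and 0. A group left with 1 library is then taken to vary as the rest do. Of the 36 regions themselves, 6 stayed called without proNeu1 replicate 1, 12 without proNeu1 replicate 2, 3 without proNeu2 replicate 1 and 0 without proNeu2 replicate 2. With offsets fitted by loess across abundance the count was 66, with 18 higher and 48 lower.

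Of the called regions, 8 of the 32 lower and 1 of the 4 higher overlapped a promoter window, taken as 250 bases before to 50 bases after a RefSeq gene start. Such a window was overlapped by 19.2% of all tested regions. Windows were given for 17491 of 21883 protein-coding genes, so regions without one can still hold a promoter. The 250 bases before the start are printed for 6 of these genes, the 6 with the smallest adjusted p, to show the promoter DNA that the called regions cover. Sequences are from RefSeq on GRCm38.p6 (the mm10 assembly), 5′ to 3′ on the gene's strand, with capitals marking matches, on either strand, to the motifs listed after them.
Med12l, lower, chr3:59006728-59006977, + strand: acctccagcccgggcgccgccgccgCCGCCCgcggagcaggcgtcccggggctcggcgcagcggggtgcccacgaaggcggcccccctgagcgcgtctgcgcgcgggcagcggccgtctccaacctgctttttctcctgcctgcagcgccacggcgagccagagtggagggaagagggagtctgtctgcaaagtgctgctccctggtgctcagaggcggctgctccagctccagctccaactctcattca
Tcaf2, lower, chr6:42645042-42645291, - strand: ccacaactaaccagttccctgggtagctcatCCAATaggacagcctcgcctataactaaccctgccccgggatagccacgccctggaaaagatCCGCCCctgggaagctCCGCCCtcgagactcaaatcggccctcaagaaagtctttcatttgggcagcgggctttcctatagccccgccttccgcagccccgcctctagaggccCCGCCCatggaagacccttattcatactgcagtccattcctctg
Rhobtb1, lower, chr10:69212407-69212656, + strand: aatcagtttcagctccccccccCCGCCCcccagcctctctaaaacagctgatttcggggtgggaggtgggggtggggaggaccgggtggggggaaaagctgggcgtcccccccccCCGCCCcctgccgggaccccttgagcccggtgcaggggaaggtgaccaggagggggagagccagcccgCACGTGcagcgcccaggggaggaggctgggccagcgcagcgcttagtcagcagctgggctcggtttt
Ptprk, lower, chr10:28074570-28074819, + strand: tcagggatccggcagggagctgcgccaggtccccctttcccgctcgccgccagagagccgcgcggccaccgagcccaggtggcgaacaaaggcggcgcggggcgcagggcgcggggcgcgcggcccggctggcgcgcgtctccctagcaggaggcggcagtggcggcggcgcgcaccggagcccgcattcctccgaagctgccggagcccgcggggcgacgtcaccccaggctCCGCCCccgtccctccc
Col19a1, lower, chr1:24587438-24587687, - strand: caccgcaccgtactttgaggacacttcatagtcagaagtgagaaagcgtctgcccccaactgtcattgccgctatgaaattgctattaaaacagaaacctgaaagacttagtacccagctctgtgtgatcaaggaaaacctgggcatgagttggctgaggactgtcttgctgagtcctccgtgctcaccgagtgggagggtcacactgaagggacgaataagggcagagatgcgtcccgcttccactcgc
Armcx1, higher, chrX:134717688-134717937, + strand: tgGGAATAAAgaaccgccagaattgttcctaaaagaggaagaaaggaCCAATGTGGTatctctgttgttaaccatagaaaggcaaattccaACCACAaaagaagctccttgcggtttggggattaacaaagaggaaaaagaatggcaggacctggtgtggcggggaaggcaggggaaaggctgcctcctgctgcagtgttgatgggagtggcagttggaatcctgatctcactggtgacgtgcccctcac

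The searched motifs were C/EBP (TTNNGCAA), PU.1 (GAGGAAGT), RUNX (TGTGGT), GFI1, IRF, AP-1 (TGANTCA), the GATA factors (AGATAA), MYC E-box (CACGTG), NF-Y (CCAAT), SP and KLF (GGGCGG) and HOXA9-like (TTTATNNC). GFI1 and IRF were searched by letters too, which are not printed here. The GC-rich SP and KLF letters stood in the 250 bases of Med12l, Tcaf2, Rhobtb1 and Ptprk, and in 67.5% of all 11294 promoter windows of 300 bases overlapping a tested region. In the Armcx1 promoter 2 RUNX matches were found, 1 of them next to and overlapping the NF-Y letters, and RUNX letters stood in 11.9% of all windows. GC content of the printed stretches ran from 49.6% in Armcx1 and 52.0% in Col19a1 to 79.2% in Ptprk, against a median of 60.8% over all windows. Among promoter windows of regions lower at an unadjusted p under 0.05, 8.95% held C/EBP letters and 3.36% PU.1 letters. The shares were 6.78% and 5.27% among windows of regions higher at that p, and 7.98% and 3.31% among all windows. A match describes letters only and is no evidence of binding.

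The region of smallest adjusted p had no protein-coding gene within 50 kb. This region at chr17:83990099-83991276 had 39.0 and 57.0 CPM in proNeu1 and 18.2 and 11.3 CPM in proNeu2, a log2 change of -1.69 ± 0.25 (SE, n = 2 per group; edgeR adjusted p = 2.23e-06). Both proNeu2 libraries lay below all 6 others, since cMoP had 65.0 and 57.0 CPM and GMP-MoP 61.0 and 55.6 CPM. It was the region that DESeq2 called (adjusted p = 0.0297), and its adjusted p over all alternatives ran up to 0.0972, reached without proNeu2 replicate 2. A further gene-distant region, chr6:103339369-103340811, had 21.2 and 15.6 CPM in proNeu1 and 4.26 and 1.99 CPM in proNeu2 (log2 change -2.50 ± 0.44, edgeR adjusted p = 0.000362). It was higher in cMoP, at 57.0 and 48.0 CPM, and in GMP-MoP, at 32.7 and 53.3 CPM.

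A region at an end of Ccnd2 (chr6:127152088-127153028), which encodes the D-type cyclin D2 of the G1 phase, had 33.3 and 31.9 CPM in proNeu1 and 14.0 and 11.9 CPM in proNeu2 (log2 change -1.32 ± 0.28, edgeR adjusted p = 0.0171). Its cMoP and GMP-MoP levels, 33.3 to 34.9 CPM, lay at or above those of proNeu1, so the 2 proNeu2 libraries stood alone. The 89 tested regions linked to a list of cell cycle genes, Ccnd2 among them, had a median log2 change of 0.07. Both proNeu2 libraries lay above both proNeu1 libraries at 28.1% of them and below at 14.6%, where 19.2% and 21.0% of all tested regions did so. Near Blnk, the adaptor of B-cell receptor signalling, a region at chr19:40998483-40999594, 4262 bp from the gene, had 8.50 and 14.9 CPM in proNeu1 and 1.22 and 1.99 CPM in proNeu2 (edgeR adjusted p = 0.0115). The cMoP and GMP-MoP libraries had 10.2 to 14.5 CPM there.

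A region 1181 bp from Lyz2, the gene of myeloid lysozyme, was 1 of 3 lower regions with their highest group mean in proNeu1. These 3 were 9.38% of the 32 lower regions, where 17.9% of all tested regions had that order. At chr10:117275403-117276360 the proNeu1 libraries had 30.5 and 21.0 CPM and the proNeu2 libraries 9.12 and 7.97 CPM (log2 change -1.57 ± 0.33, edgeR adjusted p = 0.0181), while cMoP and GMP-MoP had 2.11 to 5.38 CPM. The gene sum of Lyz2, over 4 regions, was 64.6 and 50.2 CPM in proNeu1 and 42.6 and 44.1 CPM in proNeu2 (edgeR adjusted p = 0.365).

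A region within Fam110b (chr4:5797524-5798933) had 26.2 and 17.0 CPM in proNeu1 and 4.86 and 5.97 CPM in proNeu2 (edgeR adjusted p = 0.00197). Near Trpa1, a cation channel of sensory neurons, the region at chr1:14924638-14925544 had 32 counts in the proNeu1 libraries together and 2 in the proNeu2 libraries. The ratio was 17.5, with a 95% exact counting interval of 4.46 to 150.4 that covers counting error only (edgeR adjusted p = 0.000362). In the same way, 21 counts against 1 near Otor, a gene of the inner ear, gave a ratio of 22.9 (3.69 to 948). At Zic1, a transcription factor of the cerebellum, 24 against 3 gave 8.73 (2.65 to 45.3), and at Rbms3, an RNA-binding protein, 18 against 1 gave 19.7 (3.10 to 819). With the proNeu2 libraries summed, the edgeR adjusted p was 0.0634 at Zic1 and 0.0686 at Rbms3. These low-count regions were at 27.2 to 44.9 CPM in cMoP and GMP-MoP for Trpa1 and at 4.84 to 21.1 CPM for the other 3.

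Of larger regions, one at an end of Trps1, a repressor with a GATA-type zinc finger, had 57.4 and 49.5 CPM in proNeu1 and 26.8 and 27.9 CPM in proNeu2 (log2 change -0.97 ± 0.21, edgeR adjusted p = 0.0216). A region 31328 bp from Tiam1, an exchange factor for Rac, had 57.4 and 58.3 against 29.8 and 32.5 CPM (edgeR adjusted p = 0.0269). Both lay at 53.3 to 92.2 CPM in the cMoP and GMP-MoP libraries, above both proNeu2 libraries. With the proNeu2 libraries summed, the edgeR adjusted p was 0.0985 at the Trps1, 0.123 at the Tiam1 and 0.0686 at the Pcdh7 region. At an end of Pcdh7 the proNeu1 libraries had 43.9 and 42.0 CPM and the proNeu2 libraries 22.5 and 16.6 CPM (edgeR adjusted p = 0.0181). Its cMoP level, 12.4 and 13.2 CPM, was lower than that of proNeu2, while GMP-MoP had 42.1 and 29.5 CPM. At the Lyz2 region, too, both cMoP libraries lay below both proNeu2 libraries.

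The promoter regions printed above had the following levels. At Med12l, a paralogue of a Mediator kinase-module subunit, accessibility was 22.7 and 23.1 CPM in proNeu1 and 7.90 and 6.64 CPM in proNeu2 (edgeR adjusted p = 0.0171). At Tcaf2, a regulator of a cold-sensing channel, it was 16.3 and 15.6 against 3.65 and 4.65 CPM (adjusted p = 0.0216), and at Ptprk, a receptor tyrosine phosphatase, 17.0 and 21.0 against 6.69 and 5.31 CPM (adjusted p = 0.0262), both in edgeR. The most accessible of them, at Rhobtb1, an atypical GTPase, fell the least, from 65.2 and 88.2 CPM to 48.0 and 39.2 CPM (log2 change -0.81 ± 0.18, edgeR adjusted p = 0.0218). That region also covers the start of A930033H14Rik, so the promoters cannot be told apart. At Col19a1, a collagen, the values were 9.21 and 13.6 against 1.22 and 3.3 CPM (edgeR adjusted p = 0.0332). With the proNeu2 libraries summed, the edgeR adjusted p was 0.123 at Rhobtb1, 0.0686 at Ptprk and Col19a1 and 0.0507 at Tcaf2. The remaining lower regions with promoter overlap were at Mindy4, Fmn1 and Rbms3.

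Of the 4 higher regions, 3 are described, those linked to Armcx1, Pgbd5 and Stmn1. A region 6721 bp from Stmn1, which encodes the microtubule-destabilizing protein stathmin of dividing cells, had 48.2 and 31.9 CPM in proNeu1 and 68.1 and 71.0 CPM in proNeu2 (log2 change 0.80 ± 0.19, edgeR adjusted p = 0.0462). It had 3.17 to 4.30 CPM in cMoP and 9.07 to 13.8 CPM in GMP-MoP. A region 5855 bp from Pgbd5, a domesticated piggyBac transposase, had 14.2 and 19.0 CPM in proNeu1 and 42.6 and 30.5 CPM in proNeu2 (log2 change 1.14 ± 0.27, edgeR adjusted p = 0.0400), with at most 2.18 CPM in any other library. With the proNeu2 libraries summed, the edgeR adjusted p was 0.103 at the Stmn1 and 0.0754 at the Pgbd5 region, and both calls were also lost with total counts as the scaling, the Pgbd5 call with the filter at 30 as well. Both were thus ordered cMoP and GMP-MoP, proNeu1, proNeu2 from low to high. The Armcx1 promoter region, of a mitochondrial armadillo-repeat protein, behaved differently: proNeu1 was lowest at 11.3 and 6.78 CPM, while proNeu2 had 23.7 and 26.6 CPM and the others 16.0 to 23.2 CPM (edgeR adjusted p = 0.0216).

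**Figure D1:**
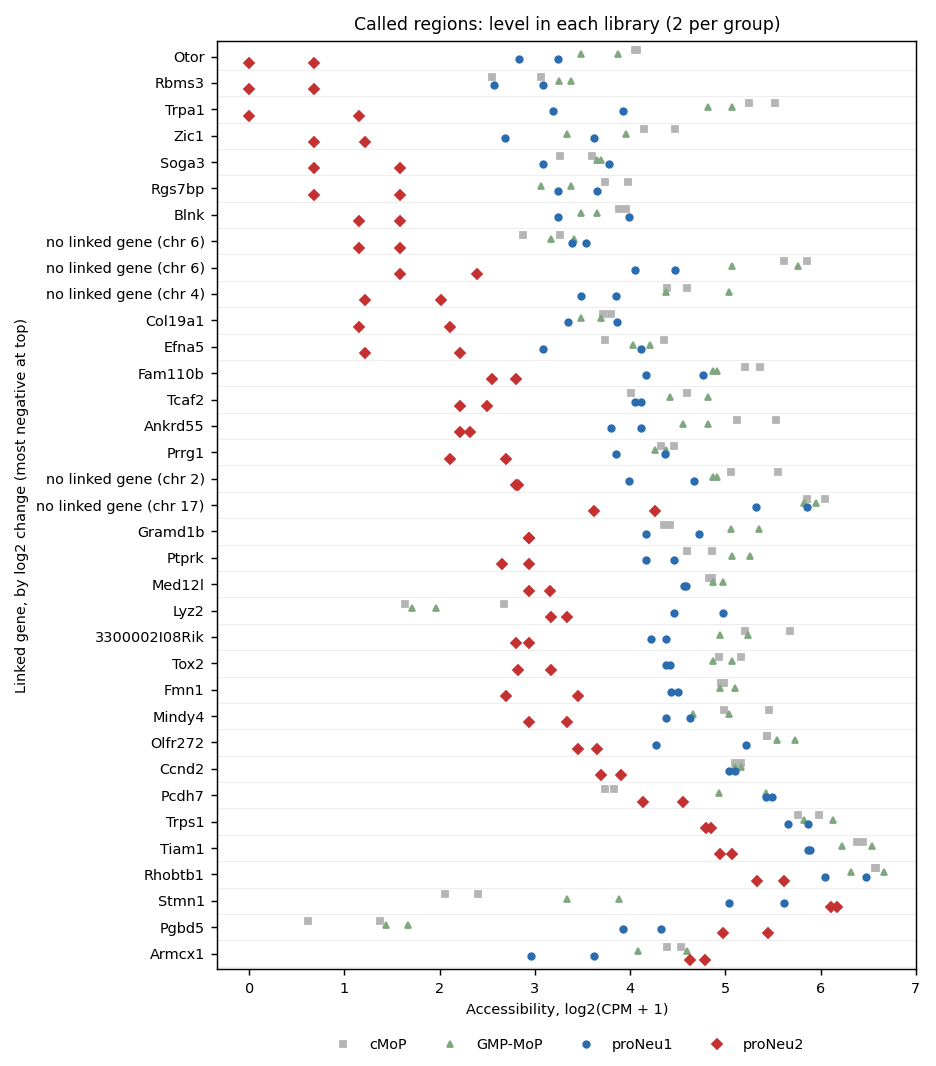
Accessibility, as log2(CPM + 1), of the called regions described here (rows, named by linked gene and ordered by log2 change) in each of the 2 libraries of the 4 groups (symbols). The proNeu2 diamonds lie left of the proNeu1 circles in 32 rows and right of them in 3, and cMoP and GMP-MoP lie mostly at or right of proNeu1 in the lower regions.

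Most lower regions were also open in the monocytic groups. Over the 32, the median level was 26.6 CPM in cMoP, 28.7 in GMP-MoP, 18.9 in proNeu1 and 5.71 in proNeu2. Both cMoP libraries exceeded both proNeu2 libraries at 30 of the 32, against 38.8% of all tested regions, and both GMP-MoP libraries did so at 31, against 36.0%. The cMoP mean was above the proNeu1 mean at 26, against 49.1% of all tested regions, and the GMP-MoP mean likewise at 26, against 50.5%. The proNeu values chose these regions, so the comparison with all regions is a description. All 4 higher regions were below proNeu2 in both libraries of both other groups. The proNeu values chose these regions too, and the share of all tested regions with this order was not counted. By position, 12 lower regions were at a gene end (within 1 kb of either end), 9 within a gene and 11 outside genes. Of all 47506 tested regions, 12067 (25.4%) were at a gene end, 18711 within a gene and 16728 (35.2%) outside genes. Among the 2498 regions lower at an unadjusted p under 0.05, the median log2(CPM) was 3.98 in cMoP, 3.85 in GMP-MoP, 3.5 in proNeu1 and 2.50 in proNeu2. Among the 1950 higher ones it was 3.59, 3.6, 3.74 and 4.47 in the same order of groups, and over all tested regions 3.75, 3.64, 3.55 and 3.55. The proNeu levels chose these regions and are a description.

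Summing the regions linked to each gene (nearest protein-coding gene within 50 kb) gave 50 called genes of 14842 (0.337%), with 47 lower (0.317%) and 3 higher (0.0202%) in the edgeR test. The gene of smallest adjusted p was Slc8a1, the sodium-calcium exchanger of excitable cells, whose 20 regions summed to 154 and 128 CPM in proNeu1 and 80.4 and 77.2 CPM in proNeu2 (log2 change -0.83 ± 0.14, adjusted p = 0.00144 in edgeR and 0.00834 in DESeq2). Of its 14 regions tested singly, 13 were below 0, and cMoP had 344 and 363 CPM and GMP-MoP 249.7 and 301 CPM. Its edgeR adjusted p was 0.180 without proNeu1 replicate 1 and 0.0567 without proNeu2 replicate 2. At Ptprk 8 of 8 tested regions were below 0, and the sum went from 86.1 and 75 to 46.1 and 31.8 CPM (log2 change -1.04 ± 0.19, edgeR adjusted p = 0.00636).

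Further lower genes named by the same rule were Fam110b, Slit2, Pcdh7, Zfp267 and Adam22. Slit2, a secreted guidance ligand, had 43.1 and 22.8 CPM in proNeu1 and 13 and 10.4 CPM in proNeu2. Pcdh7, a protocadherin, had 106 and 99.8 against 62.1 and 61.6 CPM. Adam22, a cell-surface protein of neurons, had 48.6 and 39.5 against 18.9 and 22.1 CPM. Their edgeR adjusted p values were 0.0113 to 0.0117 with Zfp267, and 0.00655 for Fam110b. At Sox17, a factor of endothelium and endoderm, the count was 28 in proNeu1 and 2 in proNeu2, a ratio of 15.3 (95% counting interval 3.85 to 132; edgeR adjusted p = 0.00973).

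In the 47 lower genes, 186 of 198 singly tested regions were below 0, a consequence in part of how the genes were chosen, and 36 of the 47 had no region called on its own. The cMoP mean exceeded the proNeu1 mean in 44 and the GMP-MoP mean did in 46, where 49.7% and 50.1% of all tested genes did so. Of the 47, 1 gene, Pdgfrb, a receptor of stromal cells, stood in the 20 gene lists used here. The lists held 360 of the 14842 tested genes. The 3 higher genes included Rnf144b, a ubiquitin ligase (101 and 127 against 164 and 161 CPM), and Armcx1. Both had an edgeR adjusted p of 0.0471. Gene calls moved with the fit: DESeq2 called 1, the 4 proNeu libraries alone gave 157 (25 higher, 132 lower), summing the proNeu2 libraries gave 18, and leaving out each library in turn gave 0 to 97, with 0 without proNeu1 replicate 1 or proNeu2 replicate 2 and 3 without proNeu2 replicate 1. Without 1 of the cMoP or GMP-MoP libraries it was 86 to 97.

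Over 500 kb windows with at least 3 regions, 3 of 3521 (0.0852%) were called, all lower. The window chr17:81500001-82000000, which holds regions of Slc8a1, had 139 and 111 CPM in proNeu1 and 74.6 and 68.2 CPM in proNeu2 (log2 change -0.80 ± 0.14, edgeR adjusted p = 0.0240), against 272 and 279 CPM in cMoP. In chr4:34000001-34500000, whose regions had no linked gene, the values were 30.5 and 29.4 against 10.4 and 11.3 CPM (log2 change -1.46 ± 0.28, edgeR adjusted p = 0.0393). In chr4:5500001-6000000, which holds Fam110b, they were 64.5 and 57.4 against 31.8 and 31.1 CPM (log2 change -0.95 ± 0.19, edgeR adjusted p = 0.0393). The count was 0 with the proNeu2 libraries summed or without proNeu1 replicate 1, proNeu2 replicate 1 or proNeu2 replicate 2, 1 in DESeq2, 16 and 22 without cMoP replicate 1 or 2, and 33 with total counts as the scaling, all lower. In other fits windows were called both ways: 43 higher and 49 lower in the 4 proNeu libraries alone, 96 and 60 without proNeu1 replicate 2, 89 and 67 without GMP-MoP replicate 1, and 83 and 71 without GMP-MoP replicate 2. At an unadjusted p under 0.05, 724 windows (20.6%) differed, with 359 (10.2%) higher and 365 (10.4%) lower.

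The 2 library pairs gave more alike differences when counts were summed over genes or windows. The difference of the libraries numbered 1 and that of the libraries numbered 2, which share no library, correlated at r = 0.177 across 47506 regions, 0.269 across 14842 genes and 0.532 across 3521 windows. These are descriptions across features that are not independent, and the number pairs no samples by design. The same mean difference correlated with GMP-MoP minus cMoP, which uses other libraries, at 0.0952, 0.122 and 0.169 at the 3 levels.

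A shift across the genome followed the local number of regions. Each region was given its number of other regions with a midpoint within 250 kb, and tested regions were divided into 5 near-equal classes of this number, from 0 to 15 neighbours in the sparsest to 33 to 62 in the densest. In this order, the median log2 change was -0.14, -0.04, 0.01, 0.04 and 0.08. The libraries numbered 1 gave -0.17 to 0.10 and those numbered 2 gave -0.08 to 0.06 between the same ends, and both increased at each step. GMP-MoP minus cMoP gave -0.02, -0.03, -0.03, -0.02 and -0.01.

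**Figure D2:**
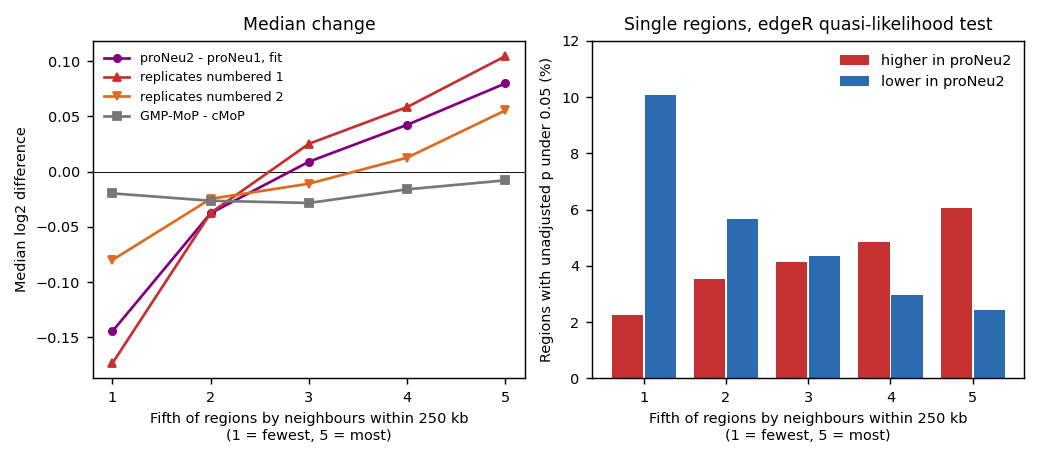
Left, median log2 difference (y) in 5 classes of regions by neighbours within 250 kb (x), for proNeu2 minus proNeu1 in the fit and by replicate number, and for GMP-MoP minus cMoP. Right, percent of regions (y) with an unadjusted p under 0.05 in each class: lower regions fall from 10.1% to 2.42% and higher regions rise from 2.24% to 6.07%.

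The same order was seen in single regions at an unadjusted p under 0.05, where 9.36% of tested regions differed, 4.1% upwards and 5.26% downwards. In the sparsest class 2.24% were higher and 10.1% lower, and in the densest 6.07% were higher and 2.42% lower. Of the 32 called lower regions, 15 were in the sparsest class, which holds 10658 of the 47506 tested regions, and 2 in the densest. The median also rose with mean level over all 8 libraries, with -0.12, -0.06, -0.04, -0.01 and 0.03 in 5 classes from lowest to highest. In the lowest level class 3.68% were higher and 4.84% lower, and in the highest 5.33% and 3.15%. Within the highest level class the medians ran from -0.06 in the sparsest to 0.09 in the densest class. The part of mean level or counting error in the shift was not tested. Within the lowest level class the medians ran from -0.25 to 0.07. They ran from -0.09 to 0.10 in regions overlapping a promoter window and from -0.14 to 0.08 on autosomes. In regions overlapping no window, which can still hold promoters of genes without one, they ran from -0.18 to 0.07. With neighbours counted within 1000 kb the range was -0.18 to 0.11. GC content was taken over promoter windows only, whose 5 classes from low to high GC gave medians of -0.00, 0.03, 0.04, 0.04 and 0.02. Regions without a window have no GC value here, and the part of GC content in the shift was not tested.

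Each library's share of counts showed the same shift without any model. Regions of the sparsest class took 18.5% and 17.5% of counts in proNeu1 and 16.5% and 16.5% in proNeu2. Those of the densest class took 21.4% and 21.9% in proNeu1 and 22.9% and 22.7% in proNeu2. The groups did not overlap in either class, and the exact permutation test gave its smallest possible two-sided p of 0.333 with 2 libraries per group. In cMoP and GMP-MoP the sparsest class took 20.2 to 21.5% and the densest 18.9 to 20.03%, so that proNeu1 stood between these groups and proNeu2. These classes were cut anew over all 61196 regions by number of neighbours, with 13529 regions in the sparsest and 11216 in the densest.

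**Figure D3:**
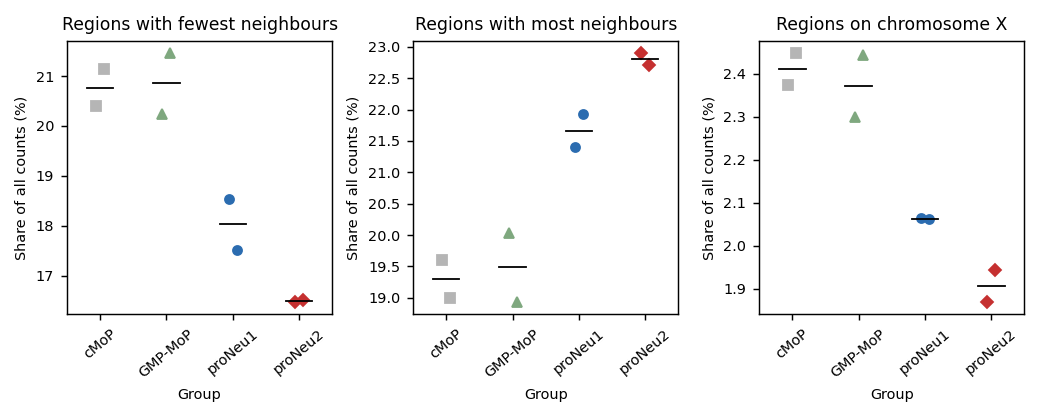
Share of all counts (y, percent; axes do not start at 0) in regions with the fewest neighbours, with the most neighbours and on chromosome X, for the 2 libraries of each group (symbols) with the mean as a line. The proNeu2 libraries hold the lowest shares in the sparsest class and on X and the highest in the densest class.

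By chromosome, the median log2 change was lowest on X (-0.13) and on 3 (-0.12), and highest on 19 (0.07), with X also having few neighbours per region (median 13 against 23 overall). Regions on X took 2.06% and 2.06% of counts in proNeu1 and 1.87% and 1.94% in proNeu2. The part of region density in this was not tested. Regions at gene ends had a median of 0.02, those within genes -0.03 and those outside genes -0.05.

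Regions of the neutrophil program were described next through 20 gene lists, of which 1371 linked regions were tested. In them 2 regions were called, at Ccnd2 and Lyz2, both lower, where 36 of all 47506 tested regions (0.0758%) were called. Regions linked to secondary and tertiary granule genes had a median log2 change of 0.08, against -0.01 over all tested regions. The proNeu2 libraries lay above both proNeu1 libraries at 22 of 68 (32.4%) and below at 5 (7.35%), where 19.2% and 21.0% of all regions did so. Phagocyte oxidase regions had a median of 0.11, with 8 of 28 separated upwards and 2 downwards. Housekeeping regions had 0.08, with 12 of 30 upwards and 1 downwards. The difference between these lists was not tested. Median neighbours were 27 for the granule and the oxidase list and 32 for housekeeping, against 23 overall.

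**Figure D4:**
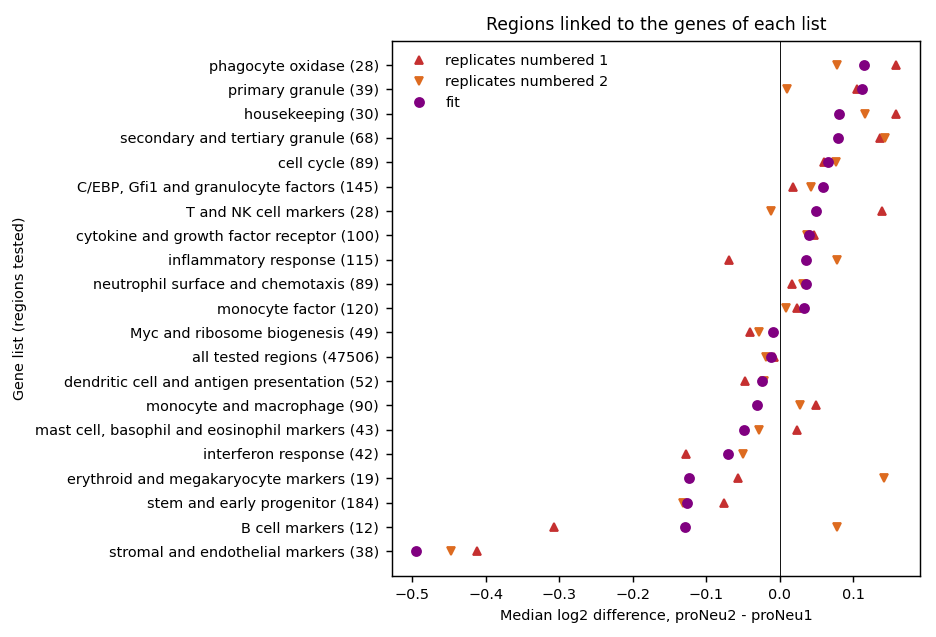
Median log2 difference of proNeu2 and proNeu1 (x) over the tested regions linked to each gene list (y, with the number of regions), in the fit and for the libraries numbered 1 and 2 apart. Stromal and endothelial markers lie lowest at -0.50 and the oxidase and primary granule lists highest, at 0.11 in the fit. For the primary granule list the libraries numbered 1 gave 0.10 and those numbered 2 gave 0.009.

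Primary granule genes went both ways. The promoter region of Mpo, myeloperoxidase, had 64.4 and 82.7 CPM in proNeu1 and 103 and 98.2 CPM in proNeu2 (log2 change 0.45 ± 0.16, edgeR adjusted p = 0.272). That of Elane, neutrophil elastase, had 17.7 and 25.1 CPM and 35.9 and 28.5 CPM (0.59 ± 0.25, edgeR adjusted p = 0.437). The libraries did not overlap at either, but neither passed the test. Among 14 gene sums of the list, 3 were above 0 at an unadjusted p under 0.05 (Mpo, Elane and Srgn) and 4 below (Ctsc, Cst7, Nkg7 and Lyz2), where 5.05% and 7.13% of all genes were above and below. No gene of the list passed the adjusted test.

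For the later granules, the main region of Cebpe, the factor that drives them, had 70.8 and 87.5 CPM in proNeu1 and 103 and 114 CPM in proNeu2 (log2 change 0.45 ± 0.15, edgeR adjusted p = 0.274), against 11.1 to 31.2 CPM in the other groups. At Lcn2, lipocalin 2, the promoter region had 32.6 and 31.9 CPM and then 39.5 and 45.8 CPM. At Camp, cathelicidin, it had 58.1 and 67.1 CPM and then 75.4 and 77.0 CPM. S100a8, a calprotectin subunit, went from 65.9 and 64.4 to 76.0 and 91.6 CPM. Cebpe, Lcn2, Camp and S100a8 separated the groups upwards and did not pass the test, with edgeR adjusted p of 0.274 to 0.632. At Ltf, lactoferrin, and Ngp the libraries overlapped, with 29.0 to 37.3 CPM and 34.6 to 41.8 CPM. In gene sums of the secondary and tertiary granule list, 6 of 25 were above 0 at an unadjusted p under 0.05 and 0 below. The smallest adjusted p among them was 0.0695, at Ltb4r1, the leukotriene B4 receptor, with 36.1 and 55.6 against 73.3 and 72.7 CPM.

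No reference region of the granulocyte and monocyte factors passed the test. The promoter of Gfi1, a repressor needed for granulopoiesis, had 53.1 and 60.4 CPM in proNeu1 and 55.9 and 64.4 CPM in proNeu2. At Cebpa the values were 85.7 and 97.0 against 74.8 and 92.3 CPM. The Irf8 region had 18.4 and 21.7 against 20.7 and 17.3 CPM. A Csf1r region, of the receptor for macrophage colony-stimulating factor, had 23.4 and 23.7 against 18.2 and 14.6 CPM, and 43.1 to 63.4 CPM in the other groups (edgeR adjusted p = 0.578). Regions of the monocyte and macrophage list had a median of -0.03, with 21.1% separated upwards and 21.1% downwards. Over the 30 reference genes chosen for the lineage, each by its region of highest mean level, 18 log2 changes were above 0 and 12 below. Groups separated upwards at 12 and downwards at 3, where 19.2% and 21.0% of all tested regions were. No region was called, while 5 higher and 1 lower had an unadjusted p under 0.05, where 4.1% and 5.26% of all tested regions did. In the highest of the 5 classes of mean level, 5.33% were higher and 3.15% lower at that p, with a median log2 change of 0.03. The part of mean level in the counts of reference regions was not tested.

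**Figure D5:**
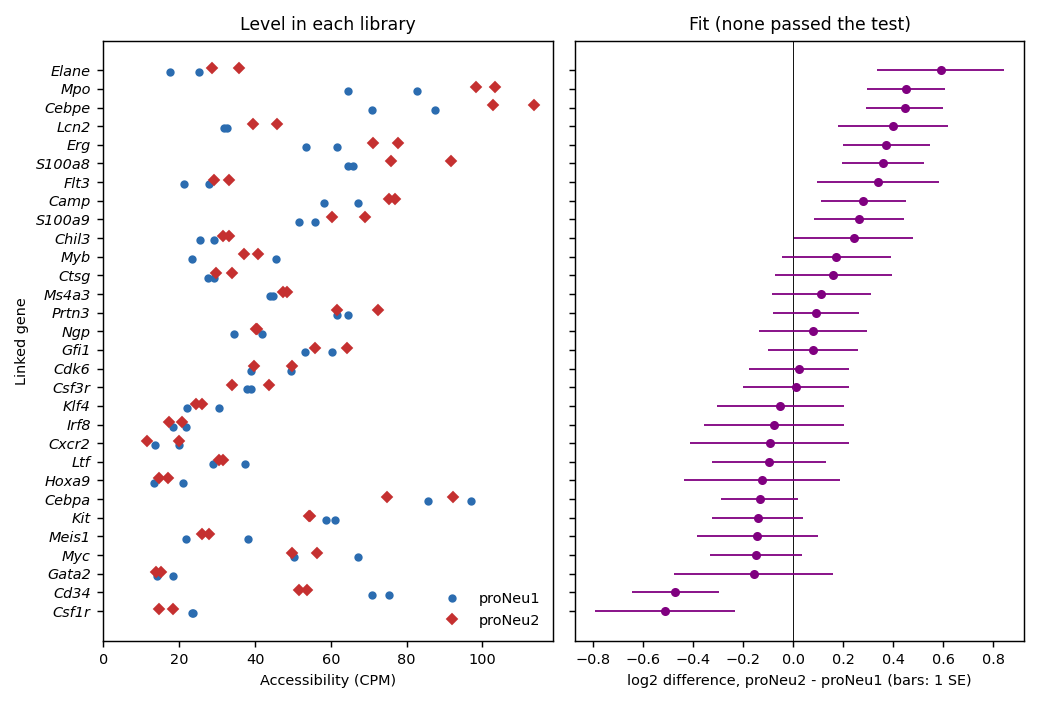
Left, accessibility (CPM, x) in each proNeu1 and proNeu2 library of the most accessible region linked to each of 30 reference genes (y). Right, log2 difference in the fit with 1 SE. The differences run from -0.51 at Csf1r to 0.59 at Elane, and none passed the adjusted test.

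The 184 tested regions of stem and early progenitor genes had a median of -0.13, and 53 (28.8%) were separated downwards against 24 (13%) upwards, where 21.0% and 19.2% of all tested regions were. At an unadjusted p under 0.05, 18 were lower and 4 higher, that is 9.78% and 2.17%, where 5.26% and 4.1% of all tested regions were, and none was called. Among 31 gene sums, 9 were below 0 (Meis1, Cd34, Ikzf2, Sox4, Hlf, Angpt1, Mecom, Mycn and Adgrl4) and 1 above (Egfl7) at that p, where 7.13% and 5.05% of all genes were. Meis1, a homeobox factor of stem cells, had 132 and 119 CPM in proNeu1 and 84.6 and 89.5 CPM in proNeu2, with 10 of 10 tested regions below 0 (log2 change -0.53 ± 0.13, edgeR adjusted p = 0.0583). Cd34, the sialomucin of progenitors, had 215 and 203 against 157 and 152 CPM, with 9 of 9 regions below 0 (-0.43 ± 0.12, edgeR adjusted p = 0.0687). The regions counted for each gene are part of its sum, so their direction is no separate support. In cMoP and GMP-MoP the Meis1 sum was 165 to 190.1 CPM and the Cd34 sum 259.6 to 316 CPM, above both proNeu groups. Kit, the stem cell factor receptor, had 58.8 and 61.0 against 54.1 and 54.4 CPM at its promoter, and the edgeR adjusted p was 0.869.

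Stromal and endothelial marker regions had the lowest median of any list, -0.50 over 38 tested regions, with 20 separated downwards (52.6%) and 3 upwards (7.89%), where 21.0% and 19.2% of all tested regions were. At an unadjusted p under 0.05, 8 were lower (21.1%), against 5.26% of all tested regions, and none was higher. Their summed share of counts was 0.0375% and 0.0372% in proNeu1 and 0.0312% and 0.0298% in proNeu2. It was 0.0411 to 0.0490% in cMoP and GMP-MoP. Their median number of neighbours was 21. The Pdgfrb sum fell from 54.9 and 59.6 CPM to 29.6 and 35.7 CPM (log2 change -0.82 ± 0.19, edgeR adjusted p = 0.0454). The part of other cells in these values was not tested. Siglech, a marker of plasmacytoid dendritic cells, had 22.2 and 21.4 against 8.87 and 10.4 CPM (edgeR adjusted p = 0.0583), with 74.4 to 113 CPM in the other groups. The dendritic cell and antigen presentation list had a median of -0.02 over 52 tested regions, with 19.2% separated downwards and 15.4% upwards. Among 18 gene sums of that list, 1 was below 0 and 0 above at an unadjusted edgeR p under 0.05.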

How the data were processed

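ATAC-seq counts of 8 libraries were used, with groups and replicate numbers from the labels. The deposited files hold raw counts per region. The submitters' processing notes name mm10 as the build and, with no role or order, edgeR 3.32.1, HOMER 4.11 and Bowtie2 2.3.5.1. No source used here gives the Tn5 shift, duplicate filter or peak calling settings, which could change levels. Counts were tested with edgeR 4.0.16 (R 4.3.3): TMM, filterByExpr at a minimum count of 10, and a robust quasi-likelihood fit over all 8 libraries. P-values were Benjamini-Hochberg adjusted over all regions, genes or windows, with calls under 0.05. DESeq2 1.42.0 was an alternative. The SE is the log2 change divided by the square root of F. Coordinates are 1-based. Regions were linked to the nearest RefSeq protein-coding gene interval within 50 kb (53897 of 61196), which does not show regulation.

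Named were 30 reference genes, all called regions (those with the largest change and smallest p first), up to 8 called genes with at least 3 regions per direction, called windows, and list genes past the test; Sox17, Pdgfrb, Siglech and genes given for list counts were added after their values were seen. The comparison, gene lists and rules were chosen with earlier results of these data known, and the neighbour classes after seeing the data. Totals of 1388525 to 1907810 counts cover these regions only, and PCR reads are not independent molecules. A few called items are counted but not reported here by name.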

Additional observations from a re-analysis of the deposited data

How the results depend on the processing

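Counts of called regions, 36 as reported, were 32 to 43 under DESeq2-style size factors, total counts, either low-count filter, the 4 proNeu libraries alone or a 2-fold minimum. They were 66 with loess offsets, 16 with the proNeu2 libraries summed to 1 sample and 1 in DESeq2, also 1 with its independent filtering, and ran from 0 to 38 when 1 library was left out. Of the 36 regions themselves, 16 stayed called with proNeu2 summed, 1 in DESeq2, and 0 to 36 when 1 library was left out. Called genes, 50 as reported, were 1 in DESeq2 with or without independent filtering, 157 in the 4 proNeu libraries alone, 18 with proNeu2 summed and 0 to 97 when 1 library was left out. Called windows, 3 as reported, were 33 with total counts, 1 with loess offsets, 1 in DESeq2, 92 in the 4 proNeu libraries alone, 0 with proNeu2 summed, 66 for 100 kb windows, 0 for 2 Mb windows and 0 to 156 when 1 library was left out. Called list regions, 2 as reported, were 0 in DESeq2 and 0 to 2 when 1 library was left out. The cause of these changes was not tested, beyond the fewer samples in a fit.

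With the replicate number as a block, 40 regions, 93 genes and 38 windows were called. The numbers share only a number: deviations of same-numbered proNeu1 and proNeu2 libraries correlated at 0.0235 across regions, and those of the other pairs of groups at -0.0110 to 0.0793.

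The difference in median log2 change between the sparsest and the densest class, -0.22, kept its sign in all 21 alternatives, which were chosen after seeing the data, at -0.30 to -0.15. Of the uncalled reference regions, Cdk6 changed sign to -0.0013, -0.0053 and -0.0055 with total counts, loess offsets and the 4 proNeu libraries alone, and Csf3r to -0.012, -0.0099 and -0.017. With the filter at 30 Csf3r was at -0.0041. When 1 library was left out, log2 changes of 14 reference regions crossed 0: Cxcr2 -0.50 to 0.27, Klf4 -0.25 to 0.23, Csf3r -0.15 to 0.20, Cdk6 -0.14 to 0.22, Hoxa9 -0.39 to 0.25, Gata2 -0.32 to 0.050, Cebpa -0.27 to 0.028, Irf8 -0.20 to 0.064, Ngp -0.035 to 0.24, Ltf -0.25 to 0.12, Myb -0.20 to 0.75, Prtn3 -0.016 to 0.22, Meis1 -0.49 to 0.33 and Myc -0.33 to 0.093. The median region held 11 or 12 counts in the proNeu libraries, which limits the precision at single regions.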
